A study of Mus musculus with 6 samples.

Results

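The Krüppel-like factors are zinc-finger transcription factors that share a DNA-binding end and bind GC-rich and CACCC-type sequences, while the rest of the protein differs and recruits activators or repressors. In mouse embryonic stem cells Klf2, Klf4 and Klf5 are known as parts of the circuit that keeps the cells self-renewing, and their functions overlap. Other members are known as repressors that recruit CtBP (Klf3) or the Sin3 and histone deacetylase complex (Klf9, Klf10, Klf13 and Klf16). The 10 members described here, Klf2, Klf3, Klf4, Klf5, Klf6, Klf7, Klf9, Klf10, Klf13 and Klf16, were taken by gene name from 31877 measured genes. Their level is the sum of 43 assembled isoforms of at least 200 nt that matched an annotated transcript or shared a splice junction with one. The other 7 Krüppel-like factor genes of the table are described beside them.

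PolyA RNA was sequenced from clonal mouse embryonic stem cells of the line TT-FHAgo2, whose Argonaute 2 (Ago2) is induced by doxycycline. Ago2 is the protein that microRNAs guide to their target transcripts. All cells had been propagated in 0.1 µg/mL doxycycline, in serum with leukemia inhibitory factor. In 2 libraries the drug had then been withdrawn for 96 h, and in the 2 libraries they were compared with it had been raised to 2.5 µg/mL for 48 h, the dose meant to give Ago2 at its wild-type level, per the labels. The withdrawal time and the induction time differ, so time off the drug, the drug and Ago2 cannot be told apart, and the genotype of the other Argonaute genes is not given in the sources used here. Each condition has a library numbered 0 and a library numbered 1 in the data. Values are FPKM, which scale the fragments of a transcript to its length and to the size of the library, listed for the library numbered 0 first. A log2 change is the difference of mean log2(FPKM + 0.5), off doxycycline minus with it. No sample of the series was of cells kept at 0.1 µg/mL. A rise or fall below therefore means higher or lower off doxycycline than at 2.5 µg/mL. Which condition moved from the starting level cannot be told.

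Ago2 itself had 28.7 and 28.8 FPKM off doxycycline, against 35.2 and 36.7 FPKM with it, a fall of -0.32 (SE 0.08, limma adjusted p = 0.0293). The change was -0.16 with TPM, which here is FPKM rescaled to a fixed total over the isoforms of at least 200 nt in each library. The number 1 libraries held 46.7 M fragments (M, mega) off doxycycline and 46.5 M with it, as the spacing of their low FPKM values gives it. A count of 3 reads would give a 2000-nt transcript 0.0352 FPKM off doxycycline and 0.0355 FPKM with it. The depth of the number 0 libraries could not be read in this way. The embryonic stem cell label was borne out by 9 of 10 markers, which summed to between 4216 and 4779 FPKM off doxycycline and between 3983 and 4465 FPKM with it, and Fut4 was near 0. The 7 fibroblast and mesenchymal markers summed to between 2.75 and 2.92 FPKM off doxycycline and between 2.34 and 2.49 FPKM with it, with Col3a1 and Postn at 0 in all libraries. The 5 endoderm markers summed to between 1.48 and 1.62 FPKM against between 0.709 and 0.975 FPKM (Afp at 0), and the 5 mesoderm markers to between 1.41 and 1.75 FPKM against 1.67 FPKM. The 5 neural markers, mostly Tubb3, summed to between 63.9 and 76.7 FPKM against between 69.7 and 74.1 FPKM, and the 5 trophoblast markers, mostly Tfap2c, to between 20.9 and 21.4 FPKM against between 19.5 and 19.8 FPKM. Of the markers of other cell types, 2 passed the threshold, 1 of the 3 neural markers tested and the 1 endoderm marker tested. The 1 fibroblast and mesenchymal marker and the 1 trophoblast marker tested did not pass, and 0 mesoderm markers were tested. Over all genes tested, 40.3% passed. The neural progenitor marker Nes had 4.37 and 4.89 FPKM off doxycycline, against 2.07 and 2.26 FPKM with it (change 0.94, SE 0.11, limma adjusted p = 0.00461), and the endoderm marker Gata4 had 1.27 and 1.39 FPKM against 0.498 and 0.814 FPKM (0.68, limma adjusted p = 0.0373). The neural markers Sox1 and Neurog2 were at 0 in both libraries off doxycycline. The part of such cells in the changes below was not tested. Fewer cells of a type and less RNA per cell cannot be told apart in such bulk RNA. Whether the libraries are of separate cultures is not stated in the labels, and the p-values measure only their spread, which may be technical.

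Klf2 RNA was by far the highest of the family and was higher off doxycycline than with it. Klf4 and Klf5 RNA were lower off doxycycline, by a smaller amount. Of the 10 members, 4 rose (Klf2, Klf3, Klf6 and Klf13), 2 fell (Klf4 and Klf5) and 4 did not pass the limma threshold (Klf7, Klf9, Klf10 and Klf16). Over all 13268 genes tested, 19.4% rose and 20.9% fell, 40.3% in all, so calls were common throughout the transcriptome and the members' counts are read against these shares. The values of the libraries did not overlap for 5 members that were higher off doxycycline (33.1% of all genes tested) and 4 that were lower (40% of all genes tested), where 73.1% of all genes tested did not overlap in either direction. Klf7 was the member whose libraries overlapped. The median log2 change was 0.12 over the members and -0.06 over all genes tested.

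**Figure D1:**
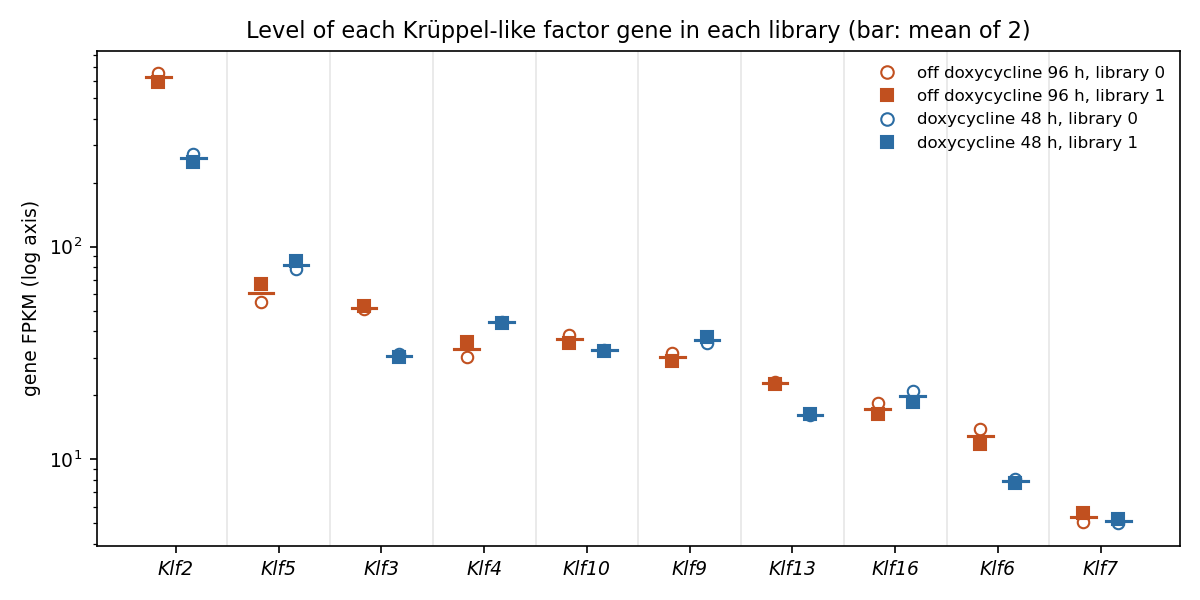
Gene-level FPKM of the 10 members in each library, on a log axis, with the libraries off doxycycline (orange) left of those with doxycycline (blue), open circles for number 0, filled squares for number 1 and a bar at the mean of 2. Klf2 lies above all other members in every library, and its orange points (597 and 654 FPKM) lie above its blue points (249 and 273 FPKM).

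The members that act in stem cell self-renewal are described first. Klf2 (chromosome 8, 74842749 to 74845555, plus strand, build NCBIM37), which in these cells acts downstream of Oct4, had 654 and 597 FPKM off doxycycline, against 273 and 249 FPKM with it. The libraries of the conditions were far apart, with means of 625 ± 40.7 FPKM off doxycycline and 261 ± 16.7 FPKM with it (SD, n = 2 each), a ratio of 2.40. The log2 change was 1.26 (SE 0.10, 95% interval 0.99 to 1.53, limma adjusted p = 0.00259) and ran from 1.19 to 1.33 without 1 library. It ranked 308 among the rises of all 13268 genes tested, a rank that ran from 199 with a minimum of 5 FPKM, and 204 with a pseudocount of 1, to 475 with a pseudocount of 0.1. A change of at least 1 that passed the test was seen in 4.57% of them, and a fall of that size in 2.13%. The level of Klf2 off doxycycline ranked 76 among all genes. Its 1847-nt isoform held between 98.2% and 99.2% of the gene's FPKM in each library.

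Klf4 (chromosome 4, 55540013 to 55545432, minus strand, NCBIM37), a target of the LIF and Stat3 pathway and a reprogramming factor, had 30.3 and 35.4 FPKM off doxycycline, against 44.4 and 43.7 FPKM with it. Both libraries off doxycycline were lower, and the change of -0.42 (SE 0.10) passed the threshold (limma adjusted p = 0.0292). Its 3029-nt isoform had 28.2 and 32.3 FPKM off doxycycline and 36.1 and 38.2 FPKM with it. A 3036-nt isoform, under 10% of the gene, had 0.0246 and 0.0189 FPKM off doxycycline and 3.39 and 2.62 FPKM with it. These isoforms have almost the same ends, so the split of reads between them is uncertain.

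Klf5 (chromosome 14, 99697640 to 99714523, plus strand, NCBIM37), which is needed in the inner cell mass, had 54.9 and 66.8 FPKM off doxycycline, against 78.5 and 85.9 FPKM with it. Both libraries off doxycycline were again lower, with a change of -0.44 (SE 0.12, limma adjusted p = 0.0427). The calls for Klf4 and Klf5 lay near the threshold. The Klf4 call was lost without the number 0 library off doxycycline (limma adjusted p = 0.0894) or without either library with doxycycline (0.116 without number 0 and 0.108 without number 1), and the Klf5 call in the same cases (0.123, 0.0873 and 0.182). Klf4 missed the threshold in 7 and Klf5 in 10 of 17 alternatives, with the same sign in all of them.

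The level of Klf2, Klf4 and Klf5 together was 739 and 699 FPKM off doxycycline, against 396 and 379 FPKM with it. The ratio of Klf2 to Klf4 was 21.6 and 16.8 off doxycycline and 6.14 and 5.70 with it, and that of Klf2 to Klf5 was 11.9 and 8.94 against 3.47 and 2.90. Klf2 held 71.0% and 68.4% of the members' summed FPKM off doxycycline, and 50.04% and 47.3% with it. Without Klf2, the remaining 9 members summed to 267 and 275 FPKM off doxycycline and to 272 and 278 FPKM with it, which overlap. The sum of all 10, at 921 and 872 FPKM against 545 and 527 FPKM, therefore differed mainly by Klf2.

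Klf2, Klf4 and Klf5 share a seed match for the miR-92 family in the 3′ untranslated region. A seed is bases 2 to 8 of a microRNA, and a match to it in the 3′ untranslated region of a transcript is how Argonaute complexes mostly find targets. The mature microRNAs of the family, from RefSeq (GRCm38.p6), are shown 5′ to 3′ with the seed in capitals, because this family's match was held by the members with the largest rise and the largest falls.
miR-92a-3p: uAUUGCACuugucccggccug
miR-25-3p: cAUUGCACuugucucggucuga
miR-363-3p: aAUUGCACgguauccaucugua
The sites below are 24-nt windows of the GENCODE M21 3′ untranslated regions (GRCm38), 5′ to 3′ on the transcript's strand, with the match in capitals. The search took GTGCAATA (8 bases), GTGCAAT and TGCAATA (7 bases each) on the transcript's strand only, and positions are counted from 1 after the stop codon.
Klf2, 214 to 221: tcaaaatgGTGCAATAattgactt
Klf4, 433 to 439: ttcgatgaTGCAATAcacacgtaa
Klf4, 751 to 758: tttcagatGTGCAATAatttgtac
Klf5, 1663 to 1669: aaagaagtGTGCAATtgcatatac
Klf6, 989 to 995: atgatcttGTGCAATgtagggttg
Klf3, 3697 to 3703: atacagtaTGCAATAtatgtatta
Klf2 rose and Klf4 fell, and each held the 8-base match, which 2.78% of the 11494 tested genes with an annotated region held. A match of 7 or 8 bases was found in 5 of 10 members and in 13.4% of these genes. The members' regions are longer than most, with a median of 2476 nt against 1140 nt, and a longer region holds more matches. Among the 5 with a match, the regions of Klf2 (737 nt) and Klf4 (982 nt) are shorter than the 1140-nt median of the tested genes. Those of Klf5 (1841 nt), Klf6 (3111 nt) and Klf3 (3743 nt) are longer. The part of region length in these matches was not tested. The 5 members with this match include 3 that rose and 2 that fell. These matches are letters in the annotated sequence, and binding was not measured.

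Klf3, Klf6, Klf7 and Klf13, which act outside the self-renewal trio, are given next. Klf3 (chromosome 5, 65188842 to 65224330, plus strand, NCBIM37), a repressor that recruits CtBP, had 50.7 and 52.7 FPKM off doxycycline, against 31.2 and 30.1 FPKM with it. The libraries agreed closely within each condition, and the change of 0.74 (SE 0.08) passed the threshold (limma adjusted p = 0.00389). Its isoforms varied as follows. A 5026-nt isoform had 21.3 and 21.1 FPKM off doxycycline and 9.54 and 9.59 FPKM with it, and a 5260-nt isoform had 3.48 and 5.95 FPKM against 2.76 and 2.92 FPKM. A 5551-nt isoform differed more by library number, with 9.83 and 0.286 FPKM off doxycycline and 3.04 and 0.191 FPKM with it, and a 5435-nt isoform had 2.94 and 1.64 FPKM against 3.23 and 2.19 FPKM. A 2447-nt isoform, which ends earlier, had 12.3 and 23.2 FPKM off doxycycline and 12.7 and 15.2 FPKM with it, so its libraries overlapped, although its mean of 17.8 FPKM off doxycycline was above the 13.9 FPKM with it. With the most abundant isoform in place of the sum the Klf3 call was lost (change 0.28, limma adjusted p = 0.570).

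Klf6 (chromosome 13, 5860735 to 5869639, plus strand, NCBIM37), a broadly expressed activator known as a tumour suppressor, had 13.9 and 11.8 FPKM off doxycycline, against 8.11 and 7.71 FPKM with it. The libraries off doxycycline were both higher (change 0.66, SE 0.11, limma adjusted p = 0.00991). Its 4217-nt isoform had 11.96 and 11.8 FPKM off doxycycline and 7.05 and 7.71 FPKM with it. A 3886-nt isoform was seen in the number 0 libraries alone, at 1.94 FPKM off doxycycline and 1.07 FPKM with it. Klf2 and Klf6 were called in all 17 alternatives.

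Klf7 (chromosome 1, 64076021 to 64168875, minus strand, NCBIM37), known for its role in developing neurons, had 5.09 and 5.61 FPKM off doxycycline, against 5.01 and 5.26 FPKM with it. The libraries overlapped, and the change of 0.05 (SE 0.10, 95% interval -0.20 to 0.30, limma adjusted p = 0.695) changed sign when the library medians were set equal (-0.013) and without the number 1 library off doxycycline (-0.013). It was spread over 11 isoforms. Those reaching 10% of the gene in some library were the 7662-nt (1.39 and 1.64 FPKM off doxycycline, 0.571 and 1.42 with it), 7410-nt (0.108 and 0 against 1.07 and 0.324), 1332-nt (0.161 and 0.779 against 1.46 and 0.692), 1097-nt (1.41 and 1.601 against 0.728 and 1.92), 668-nt (0.923 and 0.710 against 0.154 and 0.784) and 553-nt forms (0.521 and 0.826 against 0.699 and 0.00207). Apart from the 7410-nt form, lower in both libraries off doxycycline, the libraries of each form overlapped.

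Klf13 (chromosome 7, 71031123 to 71083801, minus strand, NCBIM37), which recruits Sin3a and is known in T cells as an activator of the RANTES chemokine gene, had 23.2 and 22.5 FPKM off doxycycline, against 16.1 and 16.3 FPKM with it. The 2 values of each condition were close and the conditions stood apart (change 0.49, SE 0.08, limma adjusted p = 0.00960). Its 6510-nt isoform held over 99.9% of the gene. It missed the threshold without the doxycycline library numbered 0 (limma adjusted p = 0.0559) or 1 (0.0540), with changes of 0.48 and 0.49.

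**Figure D2:**
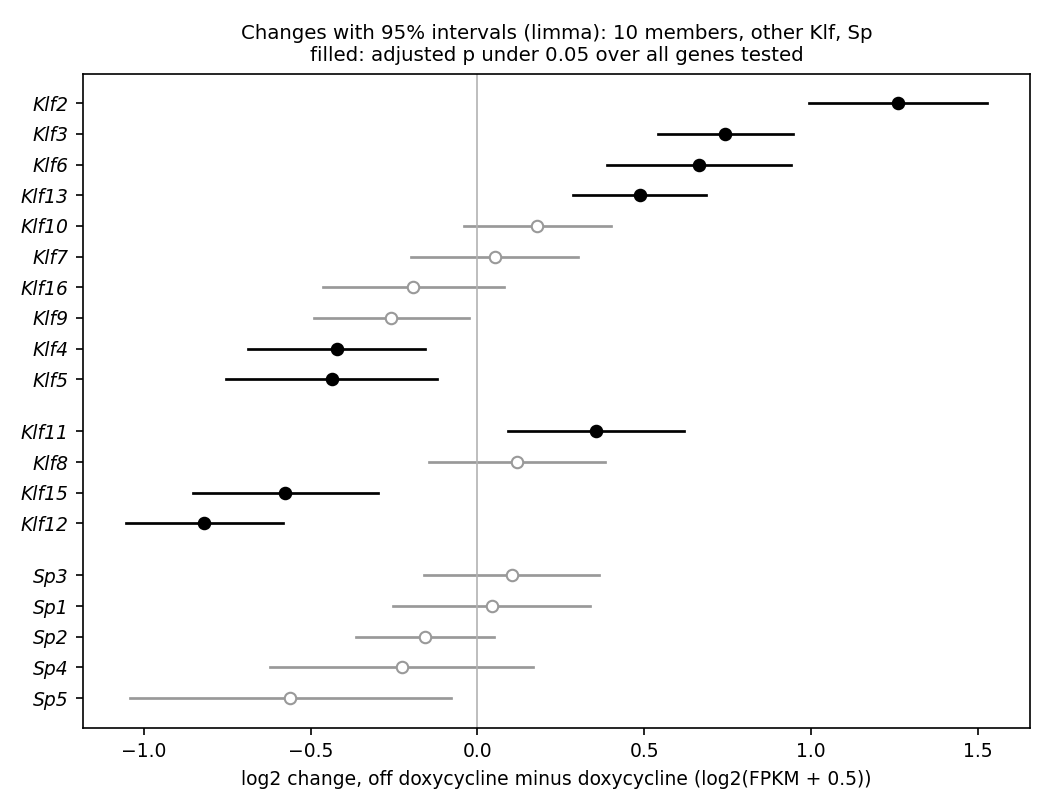
Log2 change (off doxycycline minus doxycycline) with its 95% interval from limma, for the 10 members (top), the other Krüppel-like factor genes tested (middle) and the Sp genes tested (bottom), with filled points where the adjusted p over all genes tested was under 0.05. Klf2 lies highest at 1.26, Klf4 and Klf5 lie left of 0, and all 5 Sp points are open.

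The repressors Klf9, Klf10 and Klf16 did not pass the threshold. Klf9 (chromosome 19, 23192939 to 23245792, plus strand, NCBIM37), a gene induced by glucocorticoid and thyroid hormones in other tissues, had 31.7 and 29.1 FPKM off doxycycline, against 35.1 and 37.7 FPKM with it (change -0.26, 95% interval -0.49 to -0.03, limma adjusted p = 0.0753). Its 3263-nt isoform had 20.996 and 19.98 FPKM off doxycycline and 22.4 and 26.1 FPKM with it. The 8266-nt isoform had 5.55 and 5.56 FPKM against 7.47 and 3.62 FPKM, and the 6638-nt isoform 4.23 and 3.22 FPKM against 4.18 and 7.07 FPKM, so that of these forms the 3263-nt one alone was lower in both libraries off doxycycline. Klf10 (chromosome 15, 38221219 to 38230461, minus strand, NCBIM37), known as an early gene of the transforming growth factor β response, had 38.6 and 35.3 FPKM off doxycycline, against 32.8 and 32.2 FPKM with it. Both libraries off doxycycline were higher, but the change of 0.18 (95% interval -0.04 to 0.40) missed the threshold (limma adjusted p = 0.154). It passed with TPM (change 0.34, limma adjusted p = 0.0496), and Klf9 passed with library medians set equal (-0.32, limma adjusted p = 0.0406). A 3041-nt isoform held between 97.1% and 99.8% of Klf10. Klf16 (chromosome 10, 80029874 to 80040066, minus strand, NCBIM37) had 18.3 and 16.3 FPKM off doxycycline, against 21.04 and 18.7 FPKM with it, all from a 2669-nt isoform. Its libraries were lower off doxycycline, by a change of -0.19 (95% interval -0.46 to 0.08, limma adjusted p = 0.201) that did not pass.

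The order of the members' levels differed between the conditions. Off doxycycline it ran Klf2, Klf5, Klf3, Klf10, Klf4, Klf9, Klf13, Klf16, Klf6 and Klf7, from a mean of 625 to a mean of 5.35 FPKM. The neighbours Klf10 and Klf4, and Klf4 and Klf9, overlapped between libraries there. With doxycycline the order was Klf2, Klf5, Klf4, Klf9, Klf10, Klf3, Klf16, Klf13, Klf6 and Klf7, from 261 to 5.14 FPKM, and no neighbours overlapped. Klf3 was thus at rank 3 off doxycycline and at rank 6 with it, and Klf4 at rank 5 and at rank 3.

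Several members were assembled with a late and an early 3′ end, which decides whether the matched letters are inside the transcript. The Klf3 isoforms with the late end (last exon of 4115 nt) had 38.4 and 29.5 FPKM off doxycycline and 18.6 and 15.0 FPKM with it, while the isoform with the early end (1152 nt) is the 2447-nt form given above. The share of the late end in Klf3 overlapped between conditions, at 75.7% and 56.0% off doxycycline and 59.5% and 49.6% with it, and was lower in the number 1 library of each. All 7 matches found in the Klf3 region lie beyond the early end. For Klf5, the 3890-nt isoform with the late end had 39.97 and 23.5 FPKM off doxycycline and 55.4 and 47.1 FPKM with it, and the 1721-nt isoform with the early end had 14.9 and 43.2 FPKM against 23.0 and 38.8 FPKM. The share of the early end in Klf5 likewise went with the library number, at 27.2% and 64.7% off doxycycline and 29.4% and 45.2% with it, and the part of the number in these splits was not tested. The miR-92 match of Klf5 is in the late-end form alone. For Klf9, the late-end forms had 10.7 and 9.12 FPKM off doxycycline and 12.7 and 11.7 FPKM with it, and the early-end form, which lacks 1 of its 3 matches, is the 3263-nt form. The Klf7 early-end forms, which hold none of its 8 matches, had 1.57 and 2.38 FPKM off doxycycline and 2.19 and 2.61 FPKM with it, and its late-end forms 1.99 and 1.64 FPKM against 1.84 and 1.75 FPKM. The libraries of both these Klf7 groups overlapped. The 3 Klf7 forms with another last exon had 1.52 and 1.59 FPKM off doxycycline and 0.979 and 0.903 FPKM with it, which did not overlap. Isoform values are estimates that share reads out between overlapping forms, and they were not tested one by one.

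**Figure D3:**
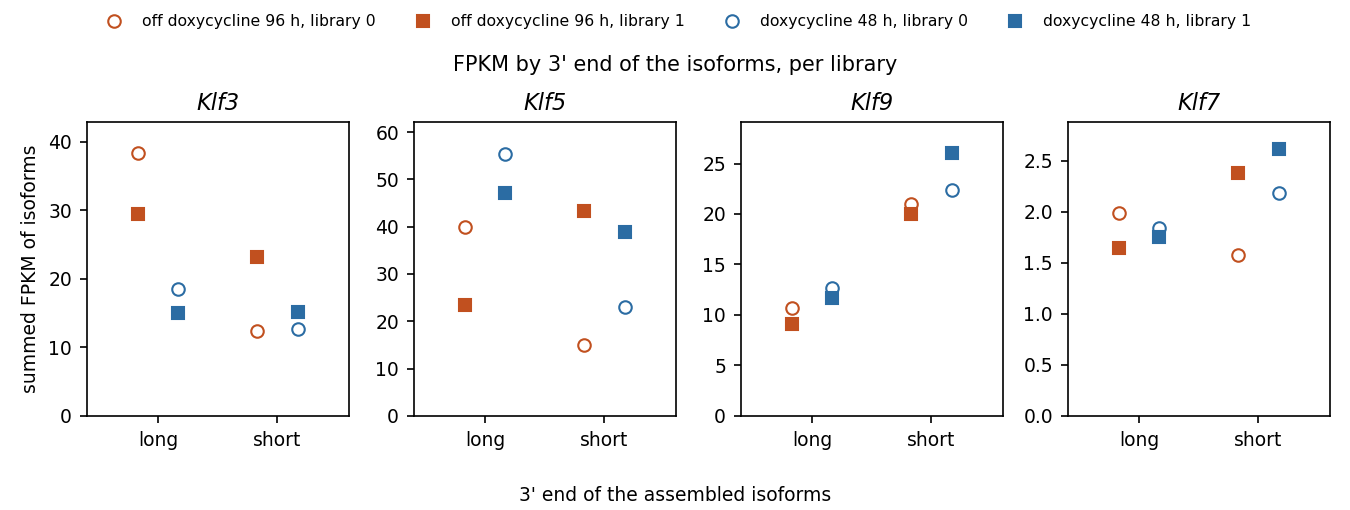
Summed FPKM of isoforms with a late (long) and an early (short) 3′ end for Klf3, Klf5, Klf9 and Klf7 in each library, off doxycycline (orange) left of doxycycline (blue), with open circles for number 0 and filled squares for number 1. The long forms of Klf3 (29.5 and 38.4 FPKM off doxycycline) lie above those with doxycycline (15.0 and 18.6 FPKM), and the short form of Klf5 splits by library number.

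The miR-291a and miR-302 family, abundant in mouse embryonic stem cells, had a match in Klf3, Klf6, Klf7 and Klf13. That is 4 of 10 members against 20.7% of the tested genes with a region. The regions of these 4 are long, with 3743, 3111, 6266 and 5157 nt against a median of 1140 nt, and a longer region holds more matches. Klf3, Klf6 and Klf13 rose and Klf7 did not pass. The search took AGCACTTA (8 bases), AGCACTT and GCACTTA (7 bases), and the microRNAs and sites are shown with seed and match in capitals, because they include the members other than Klf2 that rose.
miR-291a-3p: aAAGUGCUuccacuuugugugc
miR-294-3p: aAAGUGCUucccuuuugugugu
miR-302d-3p: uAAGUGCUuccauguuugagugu
Klf13, 535 to 541: accatgggAGCACTTgcctatgga
Klf13, 2426 to 2433: ccaaagagAGCACTTAatttaatt
Klf6, 2653 to 2659: aaaatcctAGCACTTgatttgctg
Klf3, 3312 to 3318: caaatactAGCACTTttttttcct
Klf7, 4657 to 4663: tctttgggAGCACTTgagatggac
The Klf13 match of 8 bases was of a kind held by 3.54% of the genes. The miR-17 family seed, which overlaps this one, matched Klf3 at an overlapping position, and also Klf6, Klf9 and Klf10 (21.7% of genes). No match of either family was found in the annotated regions of Klf2, Klf4, Klf5 and Klf16, and that says only that these letters are not there.

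The miR-19 family matched 7 of 10 members against 19.2% of genes. The regions of these 7 run from 1492 to 6266 nt, all above the 1140-nt median, so region length enters this count too. With 8 bases it matched Klf9, Klf10 and Klf16, the members that did not pass and are known to recruit Sin3. The search took TTTGCACA (8 bases, held by 5.87% of genes), TTTGCAC and TTGCACA, and these sites are shown because this match was the most widespread in the family.
miR-19b-3p: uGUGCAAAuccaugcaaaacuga
Klf9, 1722 to 1729: cactctagTTTGCACAtggtgtgt
Klf10, 1430 to 1437: agttacaaTTTGCACAatattttt
Klf16, 1009 to 1016: ttttttttTTTGCACAggatagat
Klf3, Klf6, Klf7 and Klf13 held 7-base matches of it. The miR-130 family matched Klf3, Klf7 and Klf13 (15.8% of genes), the miR-15 family Klf7 and Klf13 (28.1%), let-7 Klf9 and Klf13 (16.8%) and miR-29 Klf4, Klf7, Klf13 and Klf16 (19.1%). Several miR-19 and miR-130 matches overlap by position. The levels of these microRNAs were not measured in these libraries.

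**Figure D4:**
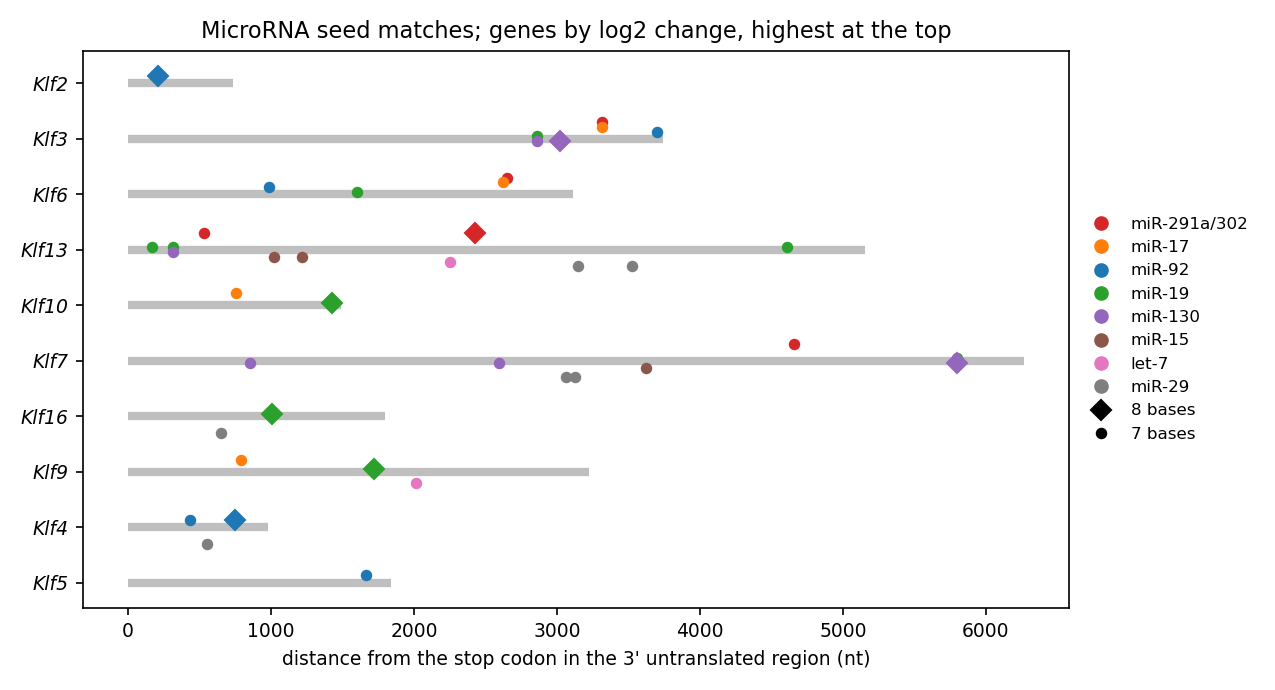
Seed matches of 8 microRNA families in the annotated 3′ untranslated regions of the 10 members (grey bars), by distance from the stop codon in nt, with diamonds for matches of 8 bases and circles for 7 bases, and genes ordered by log2 change with the highest at the top. The miR-92 matches (blue) are in Klf2, Klf3, Klf6, Klf4 and Klf5, at both ends of the order, and a few overlapping matches lie under one another.

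Among the other Krüppel-like factor genes, 4 of 7 were tested, of which 1 rose (19.4% of all genes tested) and 2 fell (20.9%). Klf11, a relative of Klf10, had 11.3 and 9.87 FPKM off doxycycline, against 8.44 and 7.85 FPKM with it (change 0.36, SE 0.10, limma adjusted p = 0.0456). Klf12, a repressor that like Klf3 recruits CtBP, had 3.16 and 3.29 FPKM off doxycycline, against 5.95 and 6.19 FPKM with it (change -0.82, SE 0.09, limma adjusted p = 0.00430). Klf3 and Klf12 thus changed in opposite directions. Klf15, known for its role in metabolism, had 6.24 and 7.41 FPKM off doxycycline, against 10.3 and 10.4 FPKM with it (change -0.58, SE 0.11, limma adjusted p = 0.0145). Klf8, also a CtBP-recruiting repressor, had 22.09 and 22.3 FPKM against 22.09 and 18.9 FPKM (change 0.12, limma adjusted p = 0.397), and its libraries numbered 0 were nearly equal. Within Klf8 a 247-nt isoform had 2.96 and 5.42 FPKM off doxycycline and 8.68 and 7.54 FPKM with it, and a 4407-nt isoform 9.60 and 10.99 FPKM against 7.61 and 6.49 FPKM, in opposite directions. In the libraries numbered 0 the 247-nt form, little longer than the 200-nt minimum, held 13.4% of the gene off doxycycline and 39.3% with it. The near-equal sums of the libraries numbered 0 therefore depend on this short form. Whether the missed call of Klf8 also depends on it was not tested. The erythroid factor Klf1 (0.0590 and 0.350 FPKM against 0.496 and 0.608 FPKM), Klf14 and Klf17 (both under 0.1 FPKM in all libraries) were too low to be tested.

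The Sp genes encode the related family that binds the same GC-rich sequences. Of 9, 5 were tested and 0 rose or fell at the limma threshold, against 40.3% of all genes tested. The unadjusted limma p was under 0.05 for 1 of them, Sp5. Sp1 had 41.5 and 36.2 FPKM off doxycycline and 40.4 and 35.1 FPKM with it (change 0.04), and Sp3 37.9 and 33.2 FPKM against 34.3 and 31.7 FPKM (0.10). Sp2 (-0.16), Sp4 (-0.23) and Sp5 (-0.56, SE 0.19, limma adjusted p = 0.0667) had lower means off doxycycline, and Sp1 and Sp2 change sign with the scaling. Sp5 was low, at 0.775 and 1.25 FPKM against 1.78 and 1.63 FPKM. Sp6, Sp7, Sp8 and Sp9 were not tested.

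Genes that act on the Krüppel-like factors are given by role. Of 12 tested genes upstream of them (LIF and transforming growth factor β signalling and stem cell factors), 6 rose and 0 fell. Their median change was 0.34, against -0.06 over all genes tested, of which 19.4% rose and 20.9% fell. The gene lists were chosen with earlier results of these data known, so such counts are no independent test. Il6st, the LIF co-receptor gp130, had 39.8 and 43.2 FPKM off doxycycline, against 19.7 and 20.1 FPKM with it (change 1.04, SE 0.08, limma adjusted p = 0.00255). Both libraries off doxycycline were higher, as they were for Jak1, the kinase bound to it, with 28.4 and 33.6 FPKM against 20.7 and 19.7 FPKM (0.60, limma adjusted p = 0.0131). Smad3, a mediator of transforming growth factor β, had 7.91 and 8.55 FPKM against 4.64 and 4.64 FPKM (0.76, limma adjusted p = 0.00470). Nanog, a stem cell factor, had 449 and 550 FPKM against 315 and 371 FPKM (0.54, limma adjusted p = 0.0386). Stat3, which acts between LIF and Klf4 and was named after its values were seen, had 30.0 and 33.3 FPKM against 31.1 and 35.5 FPKM and did not pass (limma adjusted p = 0.625). Socs3 and Lifr, also of the LIF pathway and also named after their values were seen, rose. Their changes were 0.48 (limma adjusted p = 0.0165) and 0.32 (limma adjusted p = 0.0306). Klf4 fell while Il6st, Jak1, Socs3 and Lifr rose, and the part of LIF signalling in the Klf4 change was not tested.

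Of 10 genes that set the turnover of Krüppel-like factor proteins, 2 rose (19.4% of all genes tested) and 1 fell (20.9%). Their median change was 0.07. The kinase gene Map2k2, whose pathway marks Klf2 protein for degradation in stem cells, had 42.7 and 47.8 FPKM off doxycycline, against 61.1 and 64.4 FPKM with it (change -0.47, limma adjusted p = 0.0176). Its paralog Map2k1 had 49.3 and 47.8 FPKM against 40.03 and 39.6 FPKM (0.28, limma adjusted p = 0.0396) and so moved the other way. The ubiquitin ligase gene Fbxw7, whose protein targets Klf2 and Klf5, had 11.3 and 12.5 FPKM against 9.63 and 9.52 FPKM (0.30, limma adjusted p = 0.0499). Wwp2 did not pass, at 39.5 and 47.2 FPKM against 34.5 and 38.4 FPKM (0.24). Protein was not measured.

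Of 10 cofactor genes, 1 rose (19.4% of all genes tested) and 1 fell (20.9%), with a median change of 0.00. The acetyltransferase gene Kat2b had 43.7 and 40.2 FPKM off doxycycline, against 25.2 and 25.2 FPKM with it (change 0.72, SE 0.08, limma adjusted p = 0.00460). Ctbp1, one of the corepressors that Klf3, Klf8 and Klf12 recruit, had 31.6 and 33.5 FPKM against 42.5 and 44.6 FPKM (-0.41, limma adjusted p = 0.0170). Its relative Ctbp2 was also lower in both libraries off doxycycline, at 74.1 and 101 FPKM against 120 and 140 FPKM, and missed the threshold (-0.58, limma adjusted p = 0.0519). Sin3a, the partner of Klf9, Klf10, Klf13 and Klf16, had 32.6 and 35.8 FPKM against 38.3 and 40.6 FPKM and did not pass (-0.20, limma adjusted p = 0.129).

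Of 14 other genes of the naive pluripotency network in which Klf2, Klf4 and Klf5 act, 4 rose and 5 fell. Nanog, which rose, and Esrrb, which did not pass, are counted among the upstream genes above as well. Over all genes tested, 19.4% rose and 20.9% fell. The median change of the 14 was -0.18. The largest changes were those of Lefty1 (2.75), Dppa3 (-1.28), Prdm14 (1.13) and Nr0b1 (-0.92), each past the limma threshold. Prdm14, which represses differentiation genes, had 21.1 and 22.3 FPKM off doxycycline, against 9.34 and 9.98 FPKM with it. Nr0b1, an orphan receptor that limits Oct4 activity, had 75.9 and 85.7 FPKM against 152 and 154 FPKM. Dppa3, a maternal factor, had 3.22 and 2.81 FPKM against 6.82 and 9.42 FPKM. The libraries of these genes, taken for their large changes, did not overlap between conditions, nor did those of 73.1% of all genes tested. Members of this network thus differed in direction, as Klf2 differed from Klf4 and Klf5.

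**Figure D5:**
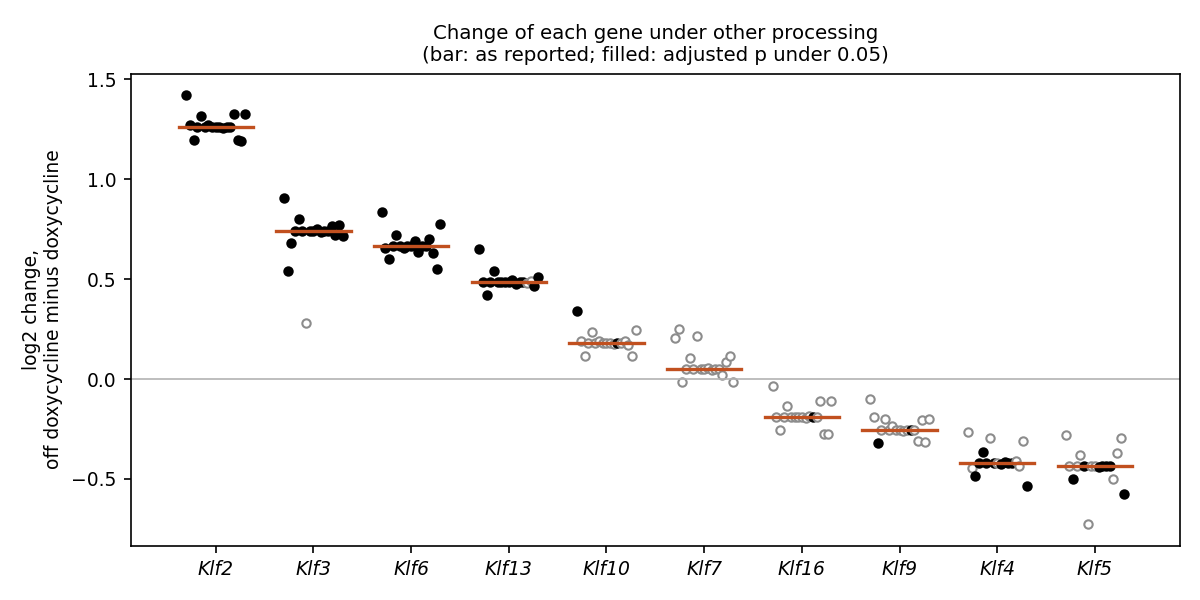
Log2 change (off doxycycline minus doxycycline) of each member as reported (orange bar) and under 17 other ways of processing (points, filled where the adjusted p was under 0.05), with genes ordered by their change. Every point of Klf2 and Klf6 is filled and above 0, and the points of Klf4 and Klf5 stay below 0, many of them open.

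The scaling shifts all changes together. With TPM the median change of all genes tested was 0.10, and 67.8% of the calls were higher, against 48.2% as deposited and 37.9% with the library medians set equal (median -0.12). With the median change set to 0, Klf2 changed by 1.31, Klf3 by 0.80, Klf6 by 0.72, Klf13 by 0.54, Klf4 by -0.37 and Klf5 by -0.38, and 56.2% of calls were higher. The sign held for each of the 10 members under these scalings except Klf7, and for Ago2 and all listed genes that were called. With TPM neither Klf4 (-0.27, limma adjusted p = 0.0530) nor Klf5 (-0.28, limma adjusted p = 0.0554) passed.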

How the data were processed

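The values are FPKM per assembled isoform, deposited by the authors. The submitters' processing notes name TopHat2 2.0.9, Cufflinks 2.1.1 and the build NCBIM37. Exon positions came from the Cuffmerge annotation the authors deposited. Of 6 samples, the 4 libraries of embryonic stem cells without spike-in were used, 2 per condition, and the other 2 were not analysed here. All were strand-specific and, per the labels, prepared by the UTP method.

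FPKM of 141569 isoforms of at least 200 nt with class code = or j were summed per gene. Isoforms under 200 nt held between 98.9% and 99.6% of all summed FPKM, and the isoforms used summed to between 449360 and 535107. A Klf7 isoform on the other strand was left out. Gene values were tested as log2(FPKM + 0.5), keeping genes whose mean reached 1 FPKM off or with doxycycline, with limma 3.58.1 under R 4.3.3 (trend, two-sided, prior degrees of freedom 3.10, residual 2), with Benjamini-Hochberg adjustment over 13268 genes at 0.05. FPKM are not counts, so no count model was used. Low values stepped in whole reads within 0.1 read in 100% of the values examined in the number 1 libraries and in 33.8% and 33.4% of those in the number 0 libraries off and with doxycycline, where chance gives 20%. In simulated data with 200 genes changed, limma called 27% of the log2 changes of size 0.5 and 92% of those of size 1, and false calls made up 9.16%.

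Seed matches were searched in GENCODE M21 3′ untranslated regions for 8 families, with 20 mature microRNAs from RefSeq, all of them matched by name. Positions are on the transcript; NCBIM37 coordinates were taken from the deposited annotation alone. Python 3.11.15, numpy 2.4.6, pandas 2.3.3 and matplotlib 3.10.9 were used.

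The members and gene lists were chosen with earlier results of these data known. The text names all members, each isoform reaching 10% of its gene, Ago2, the other Klf and the Sp genes, and the 4 genes with the largest change of each list of related genes. Stat3, Socs3 and Lifr are named besides these. The cell type lists are given as sums.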

Additional observations from a re-analysis of the deposited data

How the results depend on the processing

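Of 17 alternatives, Klf2 and Klf6 kept direction and call in all, with changes from 1.19 to 1.42 and from 0.55 to 0.84. The calls lost for Klf3, Klf4, Klf5 and Klf13 are given above, and Klf7 alone changed sign, to -0.013 with library medians set equal, and ran from -0.013 (without the number 1 library off doxycycline) to 0.12 without 1 library. The count of members that fell (2 as reported) was 0 without a minimum, with TPM, with class code = only and with the most abundant isoform. It was 1 without a length minimum, with limma without trend and with the median change set to 0, an alternative chosen after seeing the data, and ran from 0 to 2 without 1 library. The count of members that rose ran from 3 to 4 without 1 library. Over all genes, the higher calls (2578) numbered 3955 with TPM, 1266 with class code = only and 1046 with the most abundant isoform, and from 1700 to 1974 without 1 library. The lower calls (2773) numbered 1299 and 977 in the same isoform choices and from 1318 to 2365 without 1 library. A lone library left in a condition was assumed to vary like those of the other. Same-numbered libraries deviated together (correlation 0.46), but with 2 numbers this does not pair them. A replicate block for the number gave 4516 lower calls over all genes and 4 members that fell, with Klf9 and Klf16 added, and Klf10 among 5 that rose. With 2 libraries a condition, small changes are hard to detect, and the cause of the lost calls was not tested.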

Other observations

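An assembled transcript of 3196 nt lay on the strand opposite Klf7 (chromosome 1, 64076037 to 64079501, plus strand, NCBIM37), inside the span of that gene, and is in no sum above. It had 2.36 and 2.67 FPKM off doxycycline, against 2.94 and 2.82 FPKM with it, so both libraries off doxycycline were lower, while the libraries of Klf7 itself overlapped. It was not tested.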
